A study of Mus musculus with 6 samples.

Results

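The nuclear genes for subunits of respiratory chain complexes II, III and IV and of the ATP synthase (complex V) were compared between the livers of mice on 2 diets. Members were all genes with a probe set of their own whose symbol is Sdha to Sdhd or Cyc1, or begins with Uqcr, Cox4 to Cox8 or Atp5. The rule found 47 of the 19938 genes tested: 4 of complex II, 9 of complex III, 17 of complex IV and 17 of complex V. Cox7c, a complex IV subunit, lay only on probe sets shared with another gene and is not a member. Total liver RNA of male C57BL/6 mice, 6 weeks old with 1 week of acclimatization on chow, was hybridised to 6 Affymetrix Mouse Gene 1.0 ST arrays. LE mice (3 arrays, LE1 to LE3) ate chow with 100 mg lovastatin and 21 mg ezetimibe per 100 g, and CH mice (3 arrays, CH1 to CH3) ate chow with 1% cholesterol by weight. Lovastatin inhibits HMG-CoA reductase, the rate-limiting enzyme of the mevalonate pathway, and ezetimibe keeps the gut from absorbing sterols. A plain chow group that the labels mention is not analysed here, so no value tells how either diet differs from chow.

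Complex II, succinate dehydrogenase, oxidises succinate in the citric acid cycle and passes the electrons to ubiquinone. Complex III hands electrons from ubiquinol to cytochrome c, and complex IV, cytochrome c oxidase, hands them to oxygen. Both pump protons, and the ATP synthase uses the proton gradient to make ATP. Cytochrome b of complex III, the catalytic core of complex IV and parts of the membrane sector of complex V are encoded in mitochondrial DNA, complex II is wholly nuclear encoded, and hepatocytes are rich in all of them. Several complex IV subunits exist as a widely expressed isoform and as one restricted to heart and muscle, lung or testis.

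Levels are log2(intensity + 1), where the intensity is the value deposited for a probe set, and a difference is LE minus CH on that scale. The levels of different probe sets are not comparable with each other, because probes bind with different strength. A gene passed when limma's p, adjusted by Benjamini-Hochberg over all 19938 genes, was below 0.05. Fell and rose mean lower and higher in LE than in CH livers. Which diet moved a gene away from its level on chow is not known. The 6 arrays had similar median intensities, 158 to 163, and correlations across genes of 0.9969 to 0.9978 among LE arrays, 0.9965 to 0.9973 among CH arrays and 0.9898 to 0.9911 between diets. The labels call the arrays biological replicates without tying them to single mice, so the p-values reflect array-to-array spread, part of which may be technical.

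The upstream sequences of 5 members show how differently these genes begin, and they are the member that rose with its widely expressed relative and 3 members that fell. Each is the 150 bases before the RefSeq gene start (GRCm38.p6), read 5′ to 3′ on the gene's strand. Capitals mark matches to GCGCANGCG, the core of the site of NRF-1, or to CCGGAAG, the core of ETS factor sites such as that of GABP, on either strand. Both factors are known regulators of respiratory chain genes. Cox7a1 lies at chr7:30184021-30184170 on the plus strand, Cox7a2 at chr9:79759854-79760003 on the minus strand, Sdha at chr13:74350241-74350390 on the minus strand, Sdhb at chr4:140961121-140961270 on the plus strand and Atp5e at chr2:174464102-174464251 on the minus strand.
Cox7a1: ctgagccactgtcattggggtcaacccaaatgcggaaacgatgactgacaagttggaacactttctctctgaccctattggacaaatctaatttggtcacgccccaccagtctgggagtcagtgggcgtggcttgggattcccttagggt
Cox7a2: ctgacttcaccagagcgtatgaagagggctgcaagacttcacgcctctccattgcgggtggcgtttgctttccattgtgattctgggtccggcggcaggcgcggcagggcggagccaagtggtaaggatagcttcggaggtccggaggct
Sdha: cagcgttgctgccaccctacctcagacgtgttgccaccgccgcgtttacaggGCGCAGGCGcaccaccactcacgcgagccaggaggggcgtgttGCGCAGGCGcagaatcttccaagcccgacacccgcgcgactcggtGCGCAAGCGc
Sdhb: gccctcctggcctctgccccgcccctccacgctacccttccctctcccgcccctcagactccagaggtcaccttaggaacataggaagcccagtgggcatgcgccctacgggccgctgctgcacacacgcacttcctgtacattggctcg
Atp5e: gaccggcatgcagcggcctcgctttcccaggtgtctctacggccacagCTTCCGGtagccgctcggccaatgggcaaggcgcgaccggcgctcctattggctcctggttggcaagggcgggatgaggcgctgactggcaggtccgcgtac

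Sdha held 3 NRF-1 matches, which begin 98, 55 and 10 bases before the start, and Atp5e held 1 ETS match, on the opposite strand, from 102 bases before it. Neither of these exact strings was found in the windows of Cox7a1, Cox7a2 and Sdhb. Other forms of the sites were not searched, so their absence is not shown. Windows of 250 bases were available for 35 of the 47 members (38 windows, since some genes have more than 1 start). The NRF-1 letters were in 21.1% of the member windows, against 5.16% of all 32851 windows of the table, and the ETS letters in 23.7%, against 6.91%. The NRF-1 letters lay in windows of Atp5c1, Atp5g2, Atp5h, Atp5k, Atp5l, Cox6a1, Sdha and Sdhd. The ETS letters lay in those of Atp5e, Atp5h, Atp5j, Atp5l, Cox6a1, Cox6b1, Sdhd, Uqcr11 and Uqcrh. Of these genes Sdha, Atp5e and Atp5l fell, and the others did not pass. Over all 47 members 17.0% fell, beside 5.08% of all genes. Whether members with either motif fell more often than those without was not tested. The YY1 core AAGATGG was in 2.63% of member windows, against 4.49% of all, and the sterol regulatory element core TCACNCCAC in 0 of 38, against 1.05% of all. Cox7a1 had 4 CG dinucleotides in its 250 bases and Cox7a2 had 14, and 36 of the 38 member windows held more than Cox7a1. The median was 14 in the member windows and 6 in all windows.

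Of the 47 members 8 were lower in LE than in CH livers, 2 in each complex, and 38 did not pass. The heart and muscle isoform Cox7a1 of complex IV was the 1 that rose. Among all genes 5.08% fell and 7.01% rose by the same test, beside 17.0% of the members that fell. Nearly all members were brighter than the dimmest 33.3% of genes. With those dim genes left out, 11 of the 45 members kept fell, beside 9.78% of all genes kept. The median difference of the members was -0.09, beside -0.00 over all genes, and 39 of 47 were below 0 (83.0%), beside 51.7% of all genes. In 26 members all 3 LE arrays lay below all 3 CH arrays (55.3%), beside 14.7% of all genes, and in 3 members all LE arrays lay above, beside 15.9%. Without adjustment, p was under 0.05 for 19 members below 0 and 1 above, beside 11.8% and 13.0% of all genes. The count of 8 depended on the arrays: it was 4 without LE2, 2 without CH1, 5 without CH2 and 2 without CH3, where 2.63%, 2.76%, 3.63% and 3.07% of all genes fell, and 6 without LE1 or LE3 (3.46% and 4.48%). When limma's prior followed the intensity and was robust, 22 members fell (7.82% of all genes), and 21 fell (8.42%) in a regularised test built after cyberT, which the study names. In bulk tissue, fewer cells of a type and less RNA per cell cannot be told apart.

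**Figure D1:**
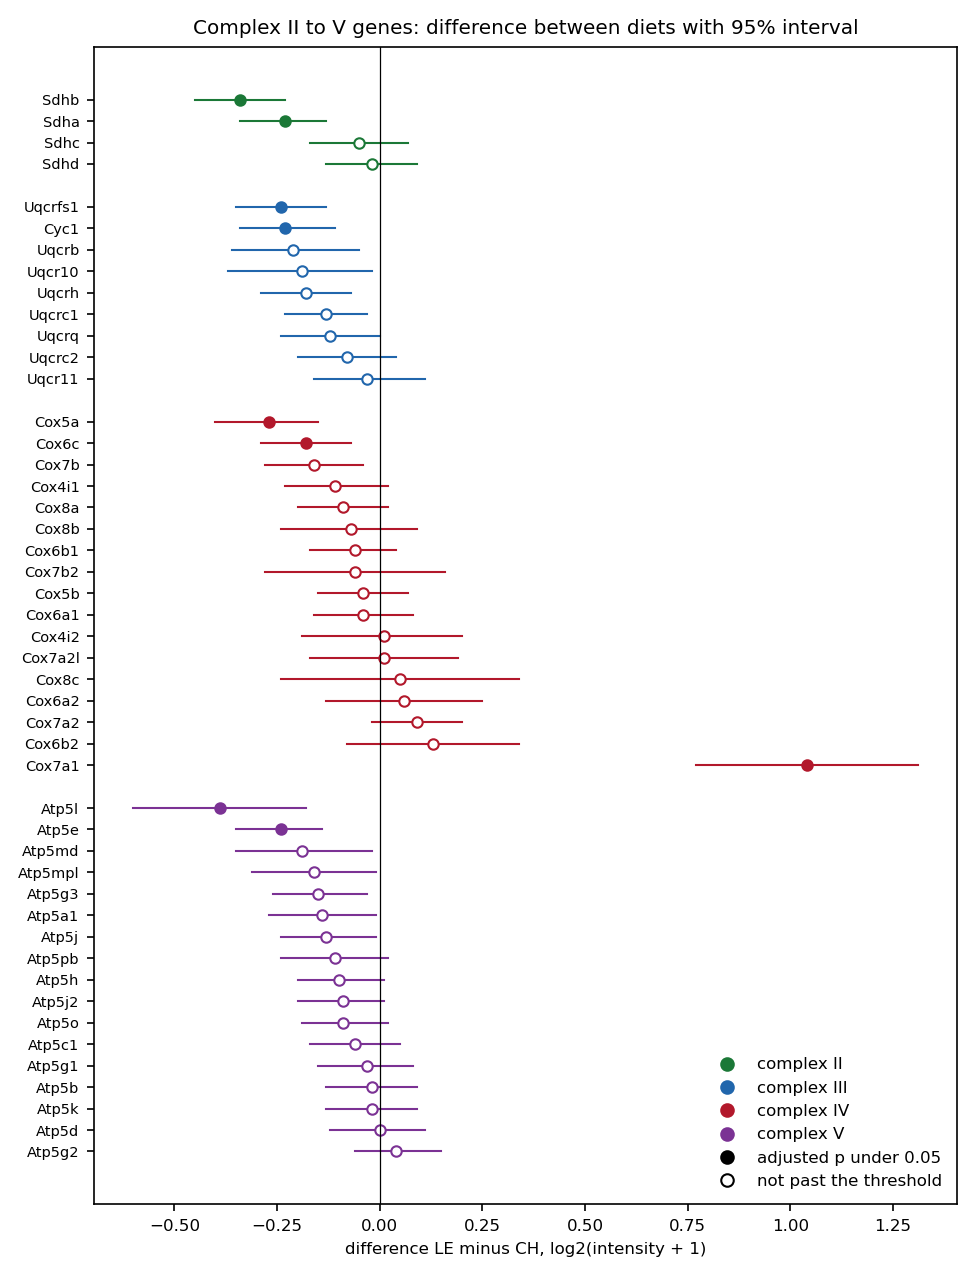
Difference between LE and CH livers (x axis, log2(intensity + 1)) for the 47 genes, grouped and coloured by complex, with 95% intervals from limma. Filled points passed the test: 8 lie left of 0, between -0.39 and -0.18, and Cox7a1 lies alone at 1.04.

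The shift was small on every array and alike within each diet. Relative to each gene's mean over the 6 arrays, the median member stood at -0.05 on each of LE1, LE2 and LE3, and at 0.04, 0.06 and 0.04 on CH1, CH2 and CH3. No array set the difference alone: the median difference stayed between -0.10 and -0.08 when any 1 array was left out. By complex, the median difference was -0.14 for complex II, -0.18 for complex III, -0.04 for complex IV and -0.10 for complex V. Without the 7 tissue-restricted isoforms that of complex IV was -0.08. Differences between complexes were not tested.

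Cox7a1 encodes the isoform of subunit 7a that predominates in heart and skeletal muscle and is also found in brown fat. It read 8.84, 8.73 and 8.99 in LE livers, against 8.01, 7.57 and 7.85 in CH livers. The groups did not overlap, with the lowest LE value well above the highest CH value. The difference was 1.04 (SE 0.12, 95% interval 0.77 to 1.31, n = 3 per diet), a 2.05-fold rise with an adjusted p of 9.33e-04 in limma. It passed in all 15 alternatives, with differences of 0.92 to 1.14 and adjusted p from 5.83e-09 to 0.010.

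Its widely expressed counterpart Cox7a2 read 11.50, 11.45 and 11.46 in LE livers, against 11.36, 11.37 and 11.40 in CH livers. All LE values lay above all CH values, but the difference of 0.09 (SE 0.05) did not pass (adjusted p = 0.277, limma). The log2 ratio of Cox7a1 to Cox7a2 was thus 0.95 higher in LE livers. A two-sided exact permutation test gave p = 0.1, the smallest that 3 arrays against 3 allow. Cox7a1 alone already separated the diets and Cox7a2 moved little, so this p adds no support. Cox7a2l, a relative that joins complexes III and IV into supercomplexes and is known to be shortened in C57BL/6 mice, differed by 0.01 (95% interval -0.17 to 0.19), and its second probe set by 0.12.

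The other 6 restricted isoforms showed no comparable rise. The heart and muscle isoforms Cox6a2 and Cox8b differed by 0.06 (95% interval -0.13 to 0.25) and -0.07 (-0.24 to 0.09), and the lung isoform Cox4i2 by 0.01 (-0.19 to 0.20). The testis isoforms Cox6b2, Cox7b2 and Cox8c differed by 0.13 (-0.08 to 0.34), -0.06 (-0.28 to 0.16) and 0.05 (-0.24 to 0.34). In each of these 6 genes the LE and CH arrays overlapped, and every upper bound was below the lower bound of Cox7a1. Cox8b and Cox7b2 were among the dimmest 33.3% of all genes, so 45 members pass a filter at that level. Of 6 skeletal muscle markers 0 passed, also at an unadjusted p under 0.05 in limma or in the manner of cyberT. Their summed intensity was 736 to 775 in LE livers and 724 to 763 in CH livers, and 3 of the 6 differences were below 0. The actin gene Acta1 and the creatine kinase gene Ckm differed by 0.12 (adjusted p = 0.406) and 0.05 (adjusted p = 0.643), the troponin gene Tnnt3 by -0.01, and the myosin genes Myl1, Myh2 and Myh4 by 0.07, -0.07 and -0.11, with Myh4 lower on every LE array than on any CH array. Ucp1, the uncoupling protein that defines brown fat, read 5.84, 6.16 and 5.84 in LE livers and 5.96, 6.12 and 5.99 in CH livers. Myl1, Myh2, Myh4 and Ucp1 were also among the dimmest 33.3% of all genes, where differences are understated. A change in these 4 genes could therefore go unseen. The same may hold to a lesser degree for Acta1, Ckm, Tnnt3, Cox4i2, Cox6a2, Cox6b2 and Cox8c, with low LE means of 7.07 to 7.74.

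In complex II the genes of the matrix arm fell and those of the membrane anchor did not pass. Sdhb, the iron-sulfur subunit, read 11.64, 11.67 and 11.70 in LE livers, against 12.02, 12.03 and 11.99 in CH livers. The groups were far apart for their spread, and Sdhb fell by 0.34 (SE 0.05, a change of -21.1%), with an adjusted p of 0.0026 in limma. Of the 8 members that fell it was the one that passed in all 15 alternatives, with adjusted p from 4.00e-08 to 0.019.

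Sdha, the flavoprotein that binds succinate, read 12.47, 12.44 and 12.49 in LE livers, against 12.70, 12.72 and 12.68 in CH livers. It fell by 0.23 (SE 0.05, adjusted p = 0.015 in limma) with no overlap. That call ended without LE2, CH1 or CH2 and with the replicate number as a block (adjusted p up to 0.065). The anchor subunits that hold the ubiquinone site differed little. Sdhc read 12.21, 12.22 and 12.32 in LE livers and 12.30, 12.33 and 12.26 in CH livers, a difference of -0.05 (95% interval -0.17 to 0.07). Sdhd differed by -0.02 (95% interval -0.13 to 0.09), and both genes had overlapping groups. The intervals of Sdhb (-0.45 to -0.23) and Sdhd did not meet, while those of Sdha (-0.34 to -0.13) and Sdhc did.

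In complex III 2 of 9 genes fell (22.2%, beside 5.08% of all genes) and 7 did not pass. Those that fell are the nuclear subunits that carry redox centres. Uqcrfs1, the Rieske iron-sulfur protein, read 9.91, 9.88 and 9.86 in LE livers, against 10.13, 10.09 and 10.15 in CH livers, and fell by 0.24 (SE 0.05, adjusted p = 0.014 in limma). Cyc1, cytochrome c1, read 11.45, 11.51 and 11.44 in LE livers, against 11.70, 11.65 and 11.73 in CH livers, and fell by 0.23 (SE 0.05, adjusted p = 0.024). Neither gene's groups overlapped. The call of Cyc1 ended without LE1, LE2, LE3, CH1 or CH3 and with the replicate number as a block (adjusted p up to 0.091 in limma). That of Uqcrfs1 ended without LE2, CH1 or CH3 (adjusted p up to 0.065).

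The other 7 complex III genes had differences of -0.21 to -0.03. Uqcrh, the hinge protein near cytochrome c1, was closest to the threshold, with 11.56, 11.63 and 11.60 in LE livers, against 11.74, 11.80 and 11.78 in CH livers, a difference of -0.18 (adjusted p = 0.053 in limma). Uqcrb, a ubiquinone-binding subunit, differed by -0.21 (adjusted p = 0.103), and the small subunits Uqcr10 and Uqcrq by -0.19 and -0.12 (adjusted p = 0.149 and 0.192). The core proteins Uqcrc1 and Uqcrc2, related to the mitochondrial processing peptidase, differed by -0.13 and -0.08 (adjusted p = 0.116 and 0.409). Uqcr11 was close to 0 at -0.03, and in Uqcr11 and Uqcrc2 the diets overlapped. The count of 2 was 1 without LE1 or LE3 and 0 without LE2, CH1 or CH3, while 7 complex III genes fell with the intensity trend or in the manner of cyberT. With a filter on the dimmest 33.3% of genes, under which 9.78% of all genes fell, it was 4.

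Among the 10 widely expressed genes of complex IV, 2 fell, 0 rose (0 also at an unadjusted p under 0.05 in limma) and 8 did not pass. Cox5a, a matrix-facing subunit, read 11.17, 11.18 and 11.06 in LE livers, against 11.39, 11.40 and 11.44 in CH livers. It fell by 0.27 (SE 0.05, a change of -17.3%, adjusted p = 0.015 in limma) with no overlap. Cox5a did not pass without CH3 or with the replicate number as a block (adjusted p up to 0.055). Cox6c read 13.50, 13.54 and 13.53 in LE livers, against 13.68, 13.72 and 13.71 in CH livers. Its fall of 0.18 (SE 0.05, adjusted p = 0.042) no longer passed when any 1 array was left out (adjusted p 0.068 to 0.120).

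Of the rest, Cox7b differed by -0.16 (adjusted p = 0.086 in limma), Cox4i1, the isoform of subunit 4 found in most tissues, by -0.11 (adjusted p = 0.269) and Cox8a by -0.09 (adjusted p = 0.275). Cox5b, which binds zinc, and Cox6a1 both differed by -0.04, and Cox6b1, which faces the intermembrane space, by -0.06. The count of falling genes was 1 without LE1, LE2, LE3, CH1 or CH2 and 0 without CH3, and 4 with the intensity trend or in the manner of cyberT.

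**Figure D2:**
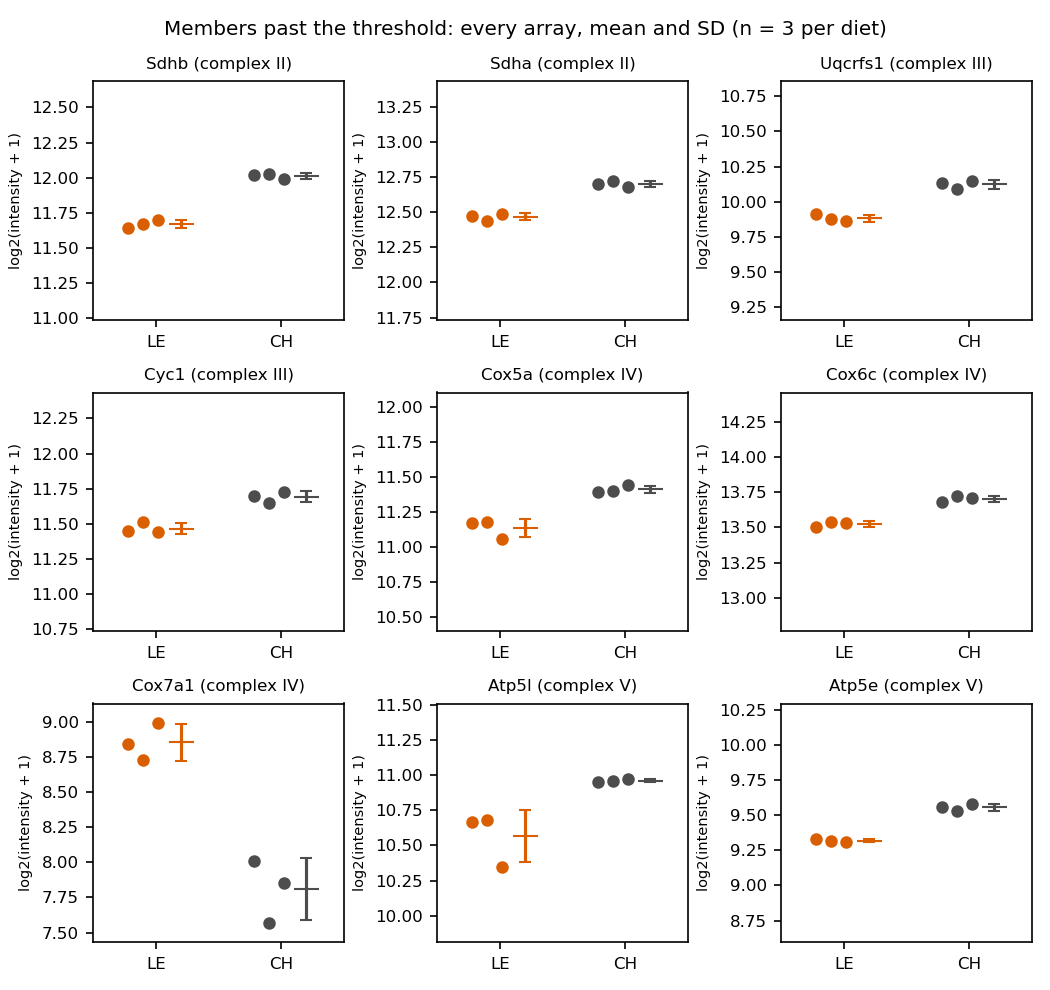
Level of each member past the threshold on every array (points), with the mean and SD (bars, n = 3 per diet), LE left and CH right. The y axes, in log2(intensity + 1), differ in position but not in span; in none of the 9 genes do the diets overlap, and Atp5l has 1 LE array, LE3 at 10.35, apart from the other two.

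In complex V, 2 of 17 genes fell (11.8%, beside 5.08% of all genes). The count that rose was 0, also at an unadjusted p under 0.05 in limma. Atp5l, subunit g of the membrane sector, read 10.67, 10.68 and 10.35 in LE livers, against 10.95, 10.96 and 10.97 in CH livers. The LE3 array was lower than the other LE arrays, and all LE values were below all CH values. The difference was -0.39 (SE 0.09, a change of -23.8%, adjusted p = 0.028 in limma). Without LE3 it was -0.28, and the call ended without CH1, CH2 or CH3 (adjusted p up to 0.078) and with the mean of the gene's 6 probe sets.

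Atp5e, the epsilon subunit of the central stalk, read 9.33, 9.32 and 9.31 in LE livers, against 9.56, 9.53 and 9.58 in CH livers. It fell by 0.24 (SE 0.05, a change of -15.5%, adjusted p = 0.013 in limma) with no overlap, and did not pass without CH1 or CH3 (adjusted p up to 0.059). The other stalk genes Atp5c1 (gamma) and Atp5d (delta) differed by -0.06 and -0.00. Neither gene of the catalytic head passed. Atp5a1 (alpha) differed by -0.14 (adjusted p = 0.164) with no overlap between diets, and Atp5b (beta), which carries the catalytic sites, by -0.02 (95% interval -0.13 to 0.09).

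The proton-carrying c ring is built from 1 mature peptide that 3 genes encode with different import sequences. Atp5g3 read 12.68, 12.57 and 12.61 in LE livers, against 12.77, 12.79 and 12.73 in CH livers, a difference of -0.15 (adjusted p = 0.126 in limma) with no overlap. Atp5g1 differed by -0.03 (95% interval -0.15 to 0.08), and Atp5g2 was higher on every LE array than on any CH array, by 0.04 (95% interval -0.06 to 0.15). Their intervals overlapped, and none of the 3 passed.

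The peripheral stalk holds the head still against the turning ring, and its 4 genes Atp5pb, Atp5h, Atp5j and Atp5o had differences of -0.13 to -0.09, with 0 past the test in limma (1 at an unadjusted p under 0.05) and 3 with no overlap. Of the remaining membrane genes, Atp5md and Atp5mpl, small subunits of the membrane part, differed by -0.19 and -0.16 (adjusted p = 0.146 and 0.169). Atp5j2 (f) differed by -0.09 and Atp5k (e) by -0.02. Over complex V, 16 of 17 differences were below 0 (94.1%), beside 51.7% of all genes. In 11 genes all LE arrays lay below all CH arrays (64.7%), beside 14.7% of all genes. The count of 2 was 1 without CH2 and 0 without CH1 or CH3, against 9 with the intensity trend and 8 in the manner of cyberT.

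Genes of this kind have processed pseudogenes, and several were measured by more than 1 probe set. Of the 47 members 12 had 2 to 6 probe sets, of which the brightest was used. The probe sets of a gene gave the same sign in 11 of these 12, the exception being Uqcr11 (-0.03 and 0.03). For Atp5l the 6 probe sets differed by -0.39 to -0.31, for Uqcrb the 3 by -0.23 to -0.21, and for Cox6c both by -0.18 and -0.16. Cox7b differed by -0.16 on the probe set used and by -0.24 on the other. Which copy each probe set reads is uncertain where near-identical sequences exist.

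Other mitochondrial lists were uneven, but complex I showed a shift like that of the members. Of 35 complex I subunit genes 7 fell, 0 rose (0 also unadjusted in limma) and 28 did not pass (median -0.11). Differences were below 0 in 88.6% of the complex I genes, beside 83.0% of the members. In 21 of the 35 all LE arrays lay below all CH arrays, beside 26 of the 47 members. The shift was thus not particular to complexes II to V, and differences between these lists were not tested. Ndufa1 (-0.45, SE 0.07), Ndufb3 (-0.36, SE 0.07) and Ndufa4 (-0.29, SE 0.08, now counted as a complex IV subunit) fell the most. The count of 7 complex I genes that fell was 3 without LE1, LE2 or CH1, 4 without CH2 and 2 without CH3. It was 11 without the dimmest genes and 16 with the intensity trend or in the manner of cyberT. Of 37 measured assembly factors of complexes II to V 2 fell (5.41%, near the 5.08% of all genes), 0 rose (2 at an unadjusted p under 0.05 in limma) and 35 did not pass (median -0.04). Those that fell were Fmc1, for ATP synthase assembly, which read 9.14, 9.28 and 9.19 in LE livers, against 9.70, 9.69 and 9.67 in CH livers (difference -0.49, SE 0.05), and Higd2a, for complex IV (-0.23, SE 0.05), a call that ended without LE2, CH1 or CH3. In the manner of cyberT and with the intensity trend 1, 2 and 2 factors of complexes III, IV and V were lower and 1 each of complexes II and IV was higher. Cytochrome c did not pass, with Cycs at -0.02 (95% interval -0.14 to 0.09), nor did the 1 mitochondrially encoded subunit gene measured, COX2 of complex IV, at -0.10 (95% interval -0.23 to 0.03), which was lower in the manner of cyberT and with the intensity trend.

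Of 16 genes from pyruvate to the end of the citric acid cycle 3 fell and 2 rose (median -0.08). Pdhb, of pyruvate dehydrogenase, and Sucla2 and Suclg1, of succinyl-CoA synthetase, which makes the succinate that complex II oxidises, fell by 0.35, 0.27 and 0.27 (SE 0.06, 0.05 and 0.05). Cs, the citrate synthase often used as a measure of mitochondrial content, rose by 0.41 (SE 0.05), with 11.82, 11.91 and 11.96 in LE livers and 11.45, 11.48 and 11.51 in CH livers. Dlat rose by 0.20 (SE 0.05). The count of rising genes was 1 whichever array was left out, and that of falling genes was 5 without the dimmest genes and 7 with the intensity trend or in the manner of cyberT. Of 18 genes of mitochondrial content and import 2 fell (Opa1 and Immt, by 0.25 and 0.21), 1 rose (Slc25a4, the heart and muscle isoform of the ADP/ATP carrier, by 0.24) and 15 did not pass (median 0.01). In this list the count that fell was 0 without LE1, LE2, CH1 or CH3 and 1 without CH2, and the count that rose was 0 without LE2, LE3, CH1, CH2 or CH3 and 2 without the dimmest genes, with the intensity trend or in the manner of cyberT.

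**Figure D3:**
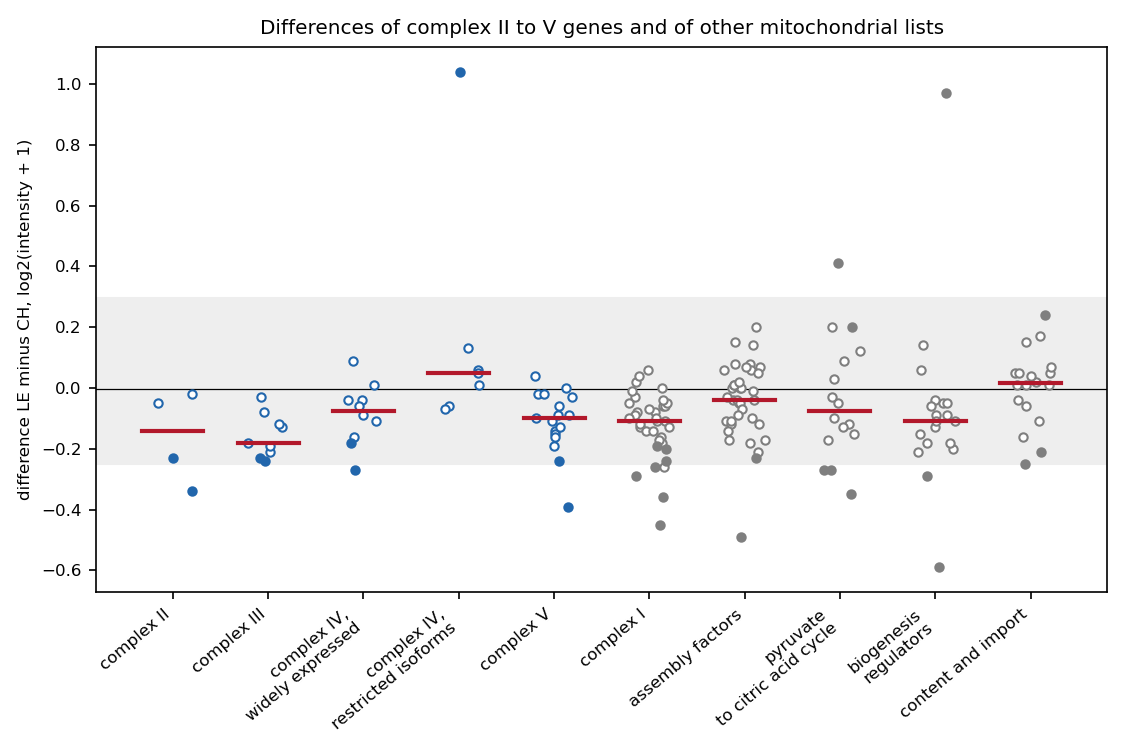
Differences between LE and CH livers (y axis, log2(intensity + 1)) of the members by complex (blue) and of other mitochondrial lists (grey), with filled points past the test and red bars at the medians. The grey band spans the 5th to 95th percentile of all genes, -0.25 to 0.30; Cox7a1 (1.04) and Ppargc1a (0.97) stand far above it.

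The related coactivators of mitochondrial biogenesis went opposite ways. Ppargc1a (PGC-1 alpha) read 9.56, 9.62 and 9.78 in LE livers, against 8.71, 8.62 and 8.74 in CH livers, and rose 1.95-fold (difference 0.97, SE 0.07, adjusted p = 8.68e-05 in limma). Ppargc1b (PGC-1 beta) read 8.18, 8.09 and 8.19 in LE livers, against 8.78, 8.69 and 8.75 in CH livers, and fell by 0.59 (SE 0.05, adjusted p = 3.24e-04). Sirt3, a mitochondrial deacetylase, fell by 0.29 (SE 0.04). The other 16 of 19 regulators did not pass (median of the list -0.11), among them Nrf1 (-0.05), which encodes NRF-1, Gabpa (-0.13) and the mitochondrial transcription factor Tfam (-0.04). Gabpb1, Pprc1 and Ppara differed more, by -0.21, -0.20 and -0.18 (adjusted p = 0.091, 0.054 and 0.057 in limma). In 10 of the 19 all LE arrays lay below all CH arrays (52.6%), beside 14.7% of all genes. In 2 all LE arrays lay above, beside 15.9%. The count of regulators that fell, 2 here, was 6 with quantile normalisation, without the dimmest genes, with the intensity trend and in the manner of cyberT, and 4 with a pseudocount of 16, and 2 rose in the manner of cyberT.

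Of 8 hepatocyte markers 0 passed in limma, also unadjusted, and 1 was higher in the manner of cyberT. They had a median of -0.01 and summed intensities of 150179 to 156503 in LE livers and 151970 to 155470 in CH livers. All 8 read high, with LE means of 13.77 to 14.53. Whether differences are understated at such levels was not tested. Among 12 Kupffer cell and macrophage markers 11 rose and 0 fell (median 0.37), with summed intensities of 14224 to 14557 in LE livers and 10826 to 11532 in CH livers. Their part in the differences of the respiratory genes was not tested. Of 7 sinusoidal endothelial and 5 cholangiocyte markers 0 passed in limma (median -0.07 and -0.03, with 3 and 1 lower at an unadjusted p under 0.05 and in the manner of cyberT). Of 8 stellate cell and fibroblast markers 1 fell (Col3a1), a call that ended whichever array was left out. Of 4 blood cell markers 1 rose (Ptprc), a call that ended without LE2, LE3, CH2 or CH3, and of 3 brown fat markers 1 fell (Ppargc1b, listed above).

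**Figure D4:**
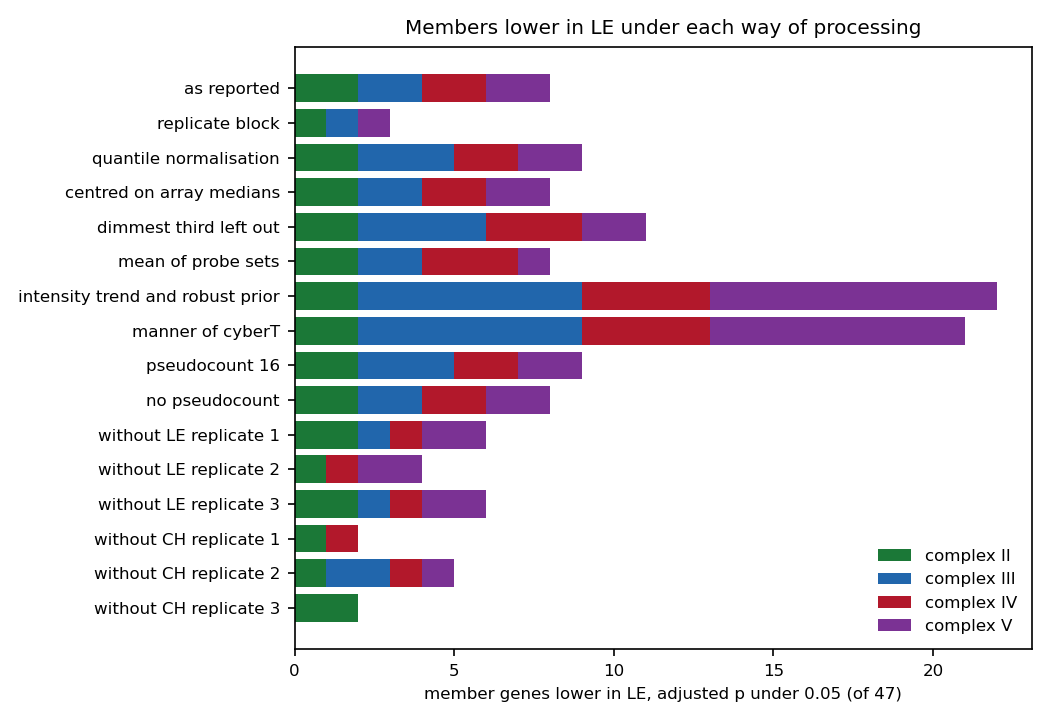
Number of members lower in LE livers at an adjusted p below 0.05 (x axis) under each way of processing (y axis), divided by complex. The bars run from 2 genes, without CH1 or without CH3, to 22 with an intensity trend and robust prior, around the 8 reported.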

How the data were processed

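The authors deposited probe set intensities on a linear scale. How they were background-corrected, normalised and summarised is not given in the sources used here; per the series design, Partek Genomics Suite and cyberT were used for differential expression. Groups came from the labels' titles. Of 35556 probe sets, 21789 carried 1 gene symbol, 1621 several and 12146 none. Per gene, the single-gene probe set with the highest mean log2 value over the 6 arrays was used. At most 28 probe sets were identical between 2 arrays.

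Values were taken as log2(intensity + 1) and fitted with limma 3.58.1 (lmFit, eBayes) in R 4.3.3 on all 19938 genes with no filter, two-sided, adjusted over all genes. Differences of dim genes are understated on this scale, and 3 arrays per diet limit the precision. Members, gene lists and motifs were chosen with earlier results of these data known. Every member is counted, and those past the threshold are given on every array. Of each other list, up to 3 genes past the threshold are named, with a few others chosen after their values were seen. Of fixed list entries, 44 assembly factors included, those without a probe set of their own were left out. Promoter windows are RefSeq's. Other settings tried were the replicate number as a block, quantile normalisation, median centring, a filter on the dimmest 33.3% of genes, averaging of probe sets, an intensity trend with robust prior, a test in the manner of cyberT (prior weight 10, window 101), pseudocounts of 16 and none, and leaving out each array. On simulated data for this comparison (200 of 19938 genes changed, independent normal noise) limma recovered 14% of changes of 0.25, 90% of 0.5 and 100% of 1 and 2, with 15 false calls. In the data 2410 genes passed, far more than were changed there. The simulated cut-off on the unadjusted p was therefore stricter, and the shares recovered for small changes are likely understated.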

Additional observations from a re-analysis of the deposited data

How the results depend on the processing

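Cox7a1 stayed higher and Sdhb lower, both past the threshold, in all 15 alternatives, and the median difference of the members stayed between -0.10 and -0.08. The number of members that rose was 1 in each. The number that fell was 22 with the intensity trend and robust prior, 21 in the manner of cyberT and 2 to 6 when 1 array was left out. By complex, leaving out 1 array gave 1 to 2 falling genes for complex II, 0 to 2 for complex III, 0 to 1 for complex IV and 0 to 2 for complex V. With the intensity trend the counts were 7 for complex III, 4 for IV and 9 for V, and in the manner of cyberT 7, 4 and 8. Without the dimmest 33.3% of genes complex III had 4, and with the mean of probe sets complex V had 1. The cause was not tested. Over the single genes, a call was lost in 29 of 135 comparisons of a called member with an alternative, and gained, always lower, in 33 of 568 of the others, for 14 of the 38 genes. Of 540 list counts, 87 moved by over 1.5 times, 41 smaller and 46 larger.

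The titles number the arrays 1 to 3 in both diets, but the numbers were not taken as pairs: same-numbered arrays deviated from their group means with correlations of -0.02, -0.10 and 0.16 across genes. With the replicate number as a block, 3 members fell (Sdhb, Uqcrfs1 and Atp5e) and 1 rose. The calls of Sdha, Cyc1, Cox5a, Cox6c and Atp5l ended. By complex 1 fell in II, 1 in III, 0 in IV and 1 in V. The share of all genes that fell with this block was not counted. Whether the lower count is particular to the members is therefore not known.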

Other observations

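Cox7c, the complex IV subunit found only on 3 probe sets that also carry Gm12338, differed by -0.03 (SE 0.05) on each of them. On the first it read 13.49, 13.57 and 13.45 in LE livers and 13.54, 13.50 and 13.55 in CH livers, which overlap.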
